A study of Saccharomyces cerevisiae with 54 samples.

Results

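The comparison described here set the MMTT strain of budding yeast 2 h 30 min after transfer to sporulation medium against the same strain at 0 h, the moment of transfer. Its members were chosen by their labels: 6 of the 54 libraries of an RNA-seq time course, 3 at 2 h 30 min and 3 at 0 h, of which 5 entered the test because replicate 3 at 2 h 30 min was too shallow and was kept as a check. MMTT is a diploid of the S288c laboratory background in which both copies of 2 genes carry alleles linked to efficient sporulation, MKT1(89G) and TAO3(4477C). It was made by crossing allele replacement strains of the 2 genes, sporulating the hybrid and mating segregants that carried both alleles. MMTT is 1 strain, so that nothing here separates these alleles from any other feature of that strain. MMTT libraries at 1 h 40 min, and libraries of the wild-type SS strain (S288c with MKT1(89A) and TAO3(4477G)) at 2 h 30 min and 0 h, served only to place the difference. All cultures had grown in rich glucose medium and then in rich acetate medium before being moved to potassium acetate with amino acid supplements. The labels do not say whether replicates came from separate cultures, so the spread between replicates behind the p-values may be technical. In the main test that spread was estimated over MMTT libraries of all time points, not only at 2 h 30 min and 0 h. For the comparison with SS it was estimated over libraries of both strains in the same way.

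A diploid yeast cell that runs out of nitrogen on a non-fermentable carbon source leaves the mitotic cycle and forms spores. Ime1, the master regulator of entry, switches on early genes that act in premeiotic DNA replication, chromosome pairing and recombination, largely through the repressor Ume6 at URS1 sites. Ndt80 then switches on middle genes, which drive the meiotic divisions, the prospore membrane that will enclose each nucleus, and the spore wall, through a site called the middle sporulation element (MSE). Mkt1 is a regulator that acts on messenger RNAs together with Pbp1, and Tao3 is a scaffold of the pathway of the kinase Cbk1.

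The libraries at 2 h 30 min did not agree closely. Replicates 1 and 2 at 2 h 30 min held 2074199 and 2983666 counts, replicate 3 held 303349, and the 3 libraries at 0 h held 3493148, 3052744 and 3236827. Levels are library-size normalised counts (CPM) after scaling by the trimmed mean of M values. Where a gene has 2 values at 2 h 30 min they are those of replicates 1 and 2, followed by that of the shallow replicate 3 in brackets, and the 3 values at 0 h are replicates 1 to 3. Among 5496 genes with a mean of at least 10 CPM, 5.86% differed more than 2-fold between replicate 2 and replicate 1, with a standard deviation of 0.59 for the log2 difference. The 3 pairs at 0 h differed more than 2-fold at 1.11%, 1.46% and 2.60% of these genes. Over the 20 pairs of replicates among the MMTT libraries used, this share had a median of 1.47% and ran up to 26.2%, which was reached at 45 min. Replicate 3 differed more than 2-fold from replicate 1 at 10.1% of genes and from replicate 2 at 9.73%. At a mean of 100 CPM or more, where its shallow counts weigh less, these shares were 5.44% and 4.11%, and that between replicates 2 and 1 was 5.48%.

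The disagreement had a direction. Of the genes that differed more than 2-fold, 204 were higher in replicate 2 and 118 in replicate 1. Beyond 4-fold, 66 were higher in replicate 2 and 20 in replicate 1. Of those 66 genes, 28 belonged to the 3 lists of spore formation genes used below, and none to the lists of recombination and cohesin genes. Distances between libraries were taken over the 2335 genes of at least 100 CPM. Replicate 1 lay 0.230 log2 units (root mean square) from the mean of the 5 h 40 min libraries and 0.349 from that of the 1 h 40 min libraries, but 0.573 from replicate 2. Replicate 2 lay 0.442 from 5 h 40 min, 0.503 from 8 h 30 min and 0.752 from 1 h 40 min. Replicate 3 lay 0.416 from the mean of replicates 1 and 2, nearer than to any other time point. Replicate 2 was thus farther than replicate 1 from every other MMTT time point except 8 h 30 min, and results are given for both libraries, with the value without replicate 2 where that moves it. Whether the cultures had advanced to different stages was not tested.

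**Figure D1:**
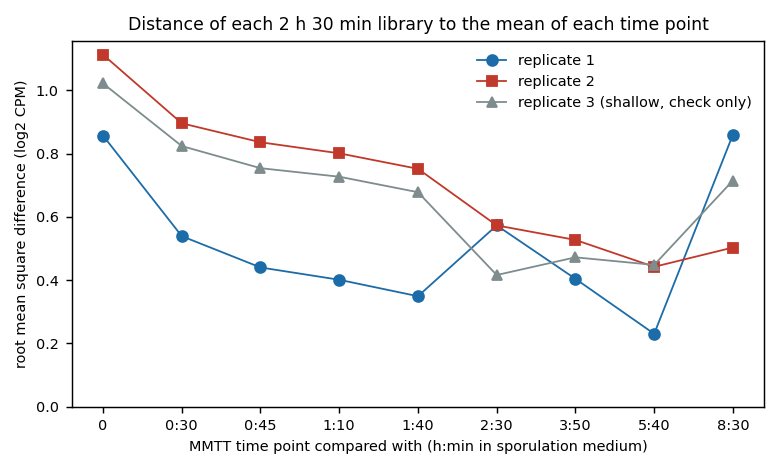
Root mean square log2 CPM difference (y axis) of each 2 h 30 min MMTT library to the mean of each MMTT time point (x axis, hours and minutes), over 2335 genes, with 1 line per replicate. Replicate 1 is nearest 5 h 40 min at 0.230, and replicate 2 is at 0.503 from 8 h 30 min, against 0.860 for replicate 1.

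**Figure D2:**
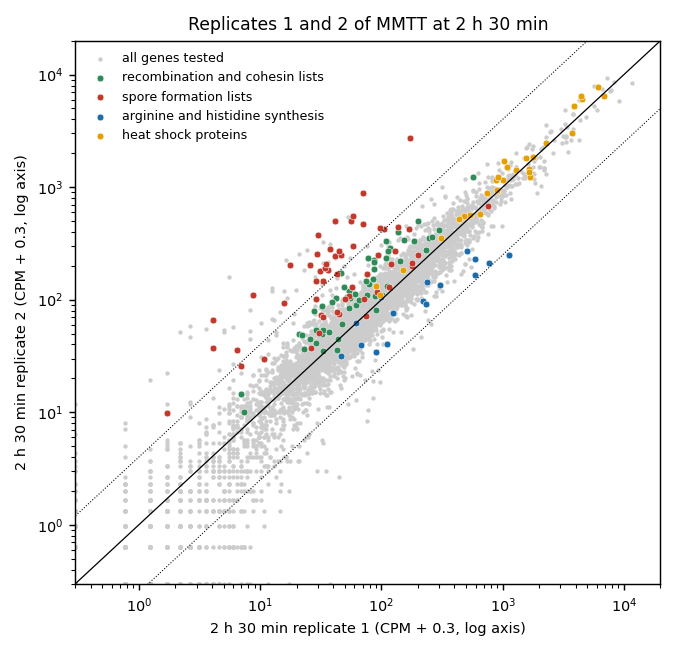
CPM of each gene in replicate 1 (x axis) and replicate 2 (y axis) at 2 h 30 min, both on log axes, with 4 sets of lists in colour, the line of equality and dotted lines at 4-fold. Spore formation genes lie above the line and many beyond 4-fold, arginine and histidine genes mostly below it, and heat shock genes along it.

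Relative to 0 h, 689 genes rose and 445 fell at 2 h 30 min, 10.7% and 6.93% of the 6419 tested. A gene was called where it differed by more than 1 on the log2 scale and had a Benjamini-Hochberg adjusted p below 0.05 in the quasi-likelihood test of edgeR. The value after ± is an approximate standard error of the log2 fold change. In 31% of all genes both used 2 h 30 min libraries lay above every 0 h library, and in 29.4% both lay below. Among the called genes this held for 675 of those that rose and 443 of those that fell, and with replicate 3 included for 617 and 420. Both replicates 1 and 2 stood more than 2-fold above the 0 h mean for 503 of the 689 genes, replicate 2 alone for 136 and replicate 1 alone for 50. For the 445 genes that fell, both stood more than 2-fold below for 305, replicate 2 alone for 103, replicate 1 alone for 34 and neither for 3. Without replicate 2 the counts were 510 and 309, and 438 and 269 of the original calls were among them. With replicate 3 standing in for the other libraries they were 546 and 496, sharing 363 and 243. When each library of the 2 groups was left out in turn, 351 of the genes that rose and 234 of those that fell were called every time. In bulk RNA, a change in the number of cells in a given state and a change in RNA per cell cannot be told apart.

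**Figure D3:**
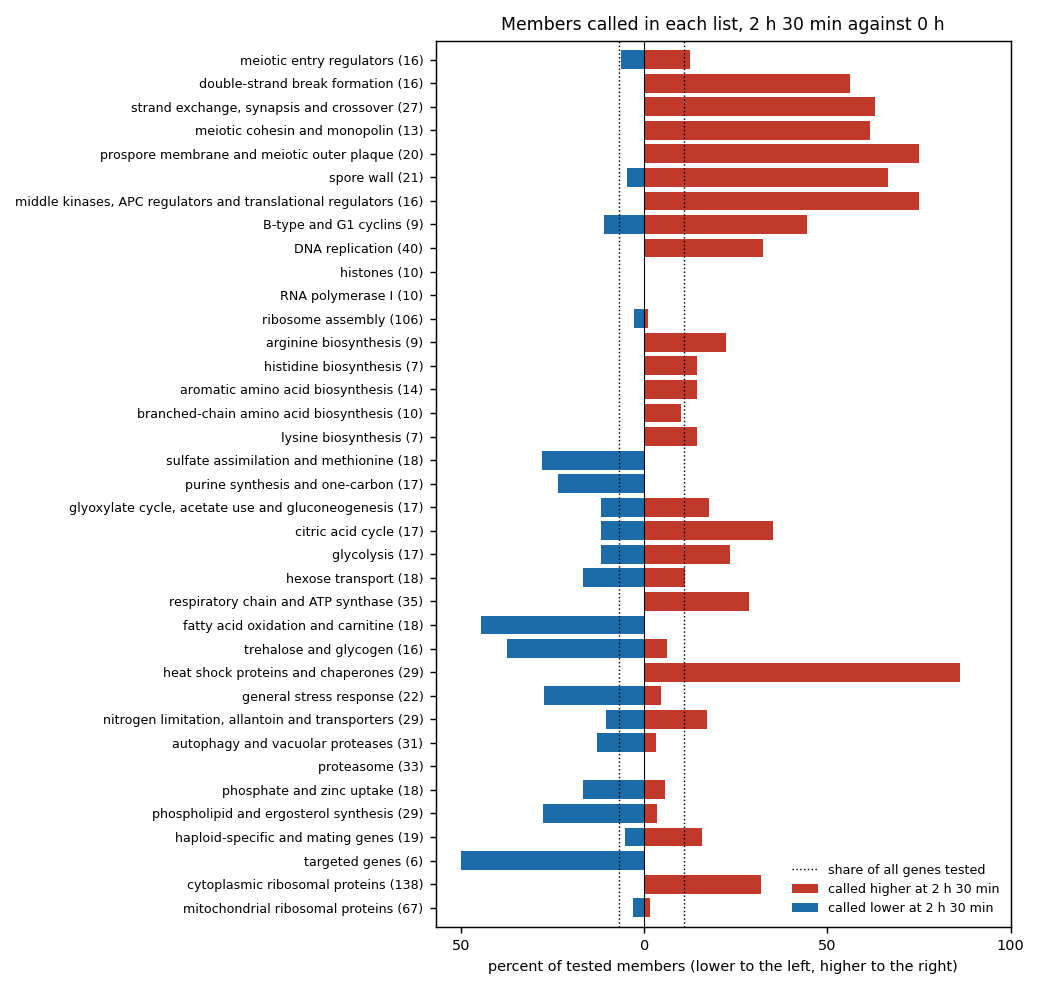
Percent of the tested members of each gene list (rows, number tested in brackets) called higher at 2 h 30 min than at 0 h (bars to the right) or lower (bars to the left), with dotted lines at the shares of all genes, 10.7% and 6.93%. Heat shock proteins, spore formation lists and recombination lists reach furthest right, and the targeted genes (MKT1, TAO3 and partners) and fatty acid oxidation furthest left.

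Genes that govern entry were called at shares near those of all genes tested, 10.7% higher and 6.93% lower. Of 16 tested, 2 rose and 1 fell (none without replicate 2, and 4 rose without replicate 1), with a median log2 fold change of 0.25 against 0.03 for all genes. IME1, the master regulator, had 324 and 332 CPM at 2 h 30 min (315 in replicate 3), against 1049, 708 and 1075 CPM at 0 h. All 2 h 30 min libraries lay below all 0 h libraries, the deeper ones close together, and IME1 fell, with a log2 fold change of -1.52 ± 0.45 and an edgeR adjusted p of 0.0125. With only 1 of these libraries against 0 h the fold change hardly moved (-1.54 and -1.51) but the adjusted p rose to 0.0795 without replicate 2 and 0.0695 without replicate 1. IME2, the kinase that acts downstream of Ime1, had 218 and 676 CPM at 2 h 30 min (387 in replicate 3), against 305, 338 and 159 CPM at 0 h. Replicate 2 was high and replicate 1 lay within the 0 h range, so that the groups overlapped (log2 fold change 0.74, edgeR adjusted p = 0.195).

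NDT80, the activator of middle genes, had 42.4 and 155 CPM at 2 h 30 min (63.1 in replicate 3), against 40.2, 40.7 and 48.96 CPM at 0 h. Replicate 2, and by less replicate 3, stood above the 0 h libraries, and replicate 1 lay among them. NDT80 was called higher, with a log2 fold change of 1.20 ± 0.40 and an edgeR adjusted p of 0.0221, but its log2 fold change was -0.03 without replicate 2 and 1.84 without replicate 1, and the call was also lost without 0 h replicate 1 or replicate 2, with a replicate block, with all libraries and with the 5 libraries of the 2 groups alone. SLZ1, an early gene whose product takes part in messenger RNA methylation, had 485 and 1179 CPM at 2 h 30 min (1030.3 in replicate 3), against 263, 396 and 280.1 CPM at 0 h. All 2 h 30 min libraries were above the 0 h libraries, and the gene rose by a log2 fold change of 1.41 (edgeR adjusted p = 0.0137). Without replicate 2 it was 0.63 and not called, and it was not called without 0 h replicate 1 either. SUM1, a repressor of middle genes, was not called and had 125 and 102 CPM at 2 h 30 min (156 in replicate 3), against 166, 176 and 154 CPM at 0 h.

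Genes of recombination and of the meiotic chromosome rose together, with a positive median difference in every 2 h 30 min library. Of 16 genes for double-strand break formation 9 rose, of 27 for strand exchange, synapsis and crossover 17 rose, and of 13 for cohesin and monopolin 8 rose, with no member of the 3 lists called lower. Median log2 fold changes were 2.28, 1.79 and 1.71. In the strand exchange list 20 members lay above all 0 h libraries in both replicates 1 and 2, and 2 lay below. The lowest log2 fold change of that list was -0.97. The median difference of the list from the 0 h mean was 1.71 in replicate 1, 2.43 in replicate 2 and 1.70 in replicate 3 for break formation, 1.15, 2.27 and 2.08 for strand exchange, and 1.42, 1.93 and 1.59 for cohesin. Replicate 2 was the higher of the used pair for 15, 26 and 13 members. With each library left out in turn, 9, 15 and 8 of these calls remained.

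Several of these genes carry a URS1 core in the stretch before the start codon, shown here because it is the site at which Ume6 holds early genes off in vegetative cells and because these genes rose in all libraries. Each window is 30 bases on the strand of the gene, 5′ to 3′, with the core GGCGGC, or GCCGCC where it lies on the other strand, in capitals.
REC104: cgcacaatatttGGCGGCtattttccgcta
MEI5: gaaaaagtattaGCCGCCcaaacttctatg
HOP2: gattatgtcctcGGCGGCtaaattttccat
DMC1: gaccggaaaataGCCGCCcaaggataaact
REC8: gaacttgacttcGGCGGCaaaccaatatat
SPO13: tattgagaaataGCCGCCgacaaaaaggaa
ZIP1: taaaataccctcGGCGGCtaaatttttaga
In the R64 assembly these windows are at chrVIII:412804-412833, chrXVI:321739-321768, chrVII:435484-435513, chrV:548271-548300, chrXVI:571545-571574, chrVIII:131940-131969 and chrIV:1032404-1032433, those of MEI5 and REC8 on the minus strand and the others on the plus strand. GGCGGC stood on either strand within the 250 bases before and the 50 bases after the start codon of 24 of the 56 genes of the 3 lists, 42.9%, and of 5.13% of 5825 such promoters. SPO11, RED1, REC102, GMC2, ECM11 and MAM1 had no match before the start codon in this window. A match is a description of the sequence, not a measured site.

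SPO11, which encodes the enzyme that cuts DNA to begin meiotic recombination, had 32.1 and 87.7 CPM at 2 h 30 min (66.1 in replicate 3), against 6.71, 9.75 and 9.73 CPM at 0 h. Every 2 h 30 min library was above every 0 h library, replicate 1 the lowest of them, with a log2 fold change of 2.80 ± 0.39 and an edgeR adjusted p of 1.56e-05. Without replicate 2 the log2 fold change was 1.88 and SPO11 was still called. REC104 and REC102, partners of Spo11 in break formation, rose by log2 fold changes of 3.01 and 2.95. RED1, a protein of the chromosome axis, had 109.9 and 233 CPM at 2 h 30 min (174 in replicate 3), against 19.8, 18.1 and 15.2 CPM at 0 h, and the groups were well apart (log2 fold change 3.28). HOP1, another axis protein, had 186 and 329 CPM at 2 h 30 min (336 in replicate 3), against 40.5, 36.9 and 31.8 CPM at 0 h and also rose, by 2.82 on the log2 scale.

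The largest changes of this class were in strand exchange genes. MEI5, which encodes a helper of the meiotic recombinase Dmc1, had 112 and 271 CPM at 2 h 30 min (186 in replicate 3), against 6.40, 1.39 and 4.86 CPM at 0 h. Levels at 0 h were low and all 3 libraries at 2 h 30 min were far above, with a log2 fold change of 5.47 ± 0.55 and an edgeR adjusted p of 3.59e-07. HOP2, which keeps pairing between homologous chromosomes, had 154 and 337 CPM at 2 h 30 min (360.5 in replicate 3), against 9.75, 5.22 and 13.6 CPM at 0 h and rose by a log2 fold change of 4.68. GMC2 and ECM11, which act in assembly of the synaptonemal complex, rose by 5.43 and 4.66 on the log2 scale, with at most 4.88 CPM in any library at 0 h. ECM11 was with SPO22 the member of its list furthest apart between replicates, with 45.7 and 173 CPM at 2 h 30 min (174 in replicate 3), against 4.57, 4.88 and 3.57 CPM at 0 h, and replicate 3 lay with replicate 2.

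DMC1, the meiosis-specific strand exchange protein, was already present at 0 h and had 566 and 1226 CPM at 2 h 30 min (838 in replicate 3), against 241, 342 and 197 CPM at 0 h. The groups did not overlap, and DMC1 rose with a log2 fold change of 1.79 ± 0.29 and an edgeR adjusted p of 7.01e-05, or by 1.12 without replicate 2. ZIP1, the central element of the synaptonemal complex, had 118 and 286 CPM at 2 h 30 min (225 in replicate 3), against 59.4, 66.2 and 37.9 CPM at 0 h. Replicate 1 was the lowest of the 2 h 30 min libraries but above all at 0 h (log2 fold change 1.90, and 1.12 without replicate 2). SPO22, a crossover factor, rose by 2.16, and by 1.12 without replicate 2. In the cohesin list REC8, the meiotic kleisin subunit that holds sister chromatids together, had 201 and 500.3 CPM at 2 h 30 min (463 in replicate 3), against 28.96, 31.3 and 35.7 CPM at 0 h, with no overlap and a log2 fold change of 3.46 ± 0.32 and an edgeR adjusted p of 1.49e-07. SPO13 and MAM1, needed for both sister kinetochores to attach to one pole in meiosis I, rose by 3.10 and 2.92, and MAM1 by 1.95 without replicate 2. SCC2, the cohesin loader, was with MAM1 furthest apart between replicates 1 and 2, with 86.3 and 223 CPM at 2 h 30 min (147 in replicate 3), against 97.9, 88.8 and 55.4 CPM at 0 h, and was not called.

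**Figure D4:**
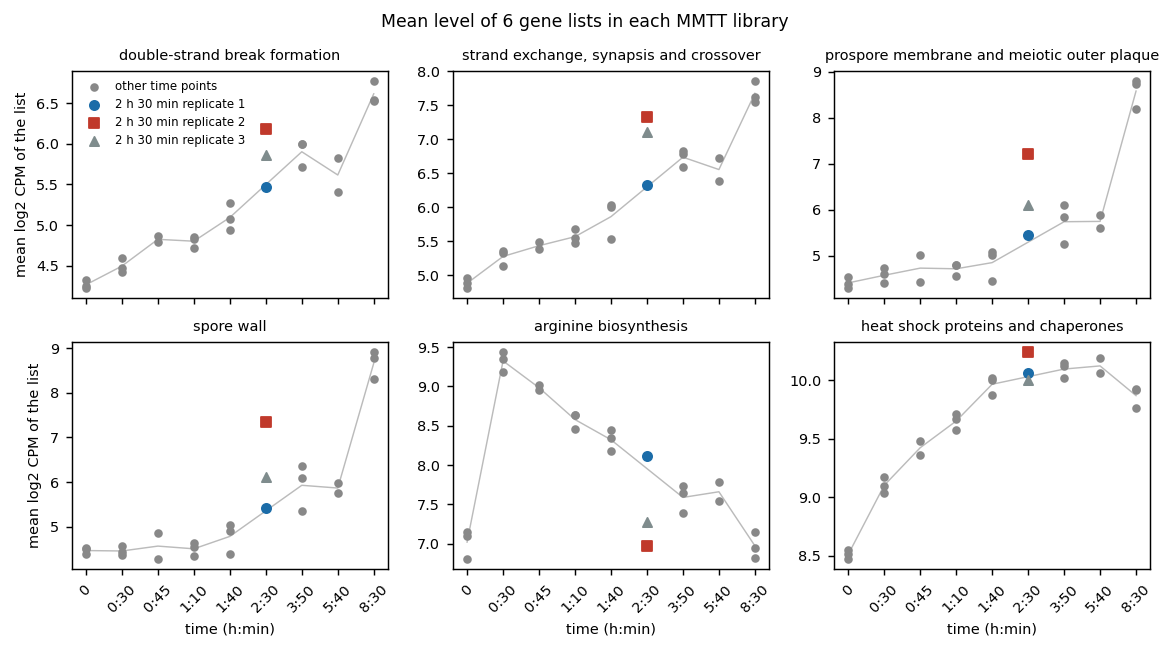
Mean log2 CPM (y axis) of 6 gene lists in each used MMTT library by time (x axis, hours and minutes), with the 3 libraries at 2 h 30 min in colour and the mean of other times as a line. At 2 h 30 min the prospore membrane list is at 5.45 in replicate 1, 7.20 in replicate 2 and 6.09 in replicate 3, against 4.39, 4.30 and 4.55 at 0 h, and the heat shock list is at 10.06, 10.24 and 10.003, against 8.52, 8.47 and 8.55 at 0 h.

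Middle genes were also higher, but by amounts that depended on the library. Of 20 genes for the prospore membrane and the meiotic outer plaque 15 rose, of 21 spore wall genes 14 rose and 1 fell, and of 16 in the list of middle kinases, regulators of the anaphase-promoting complex and translational regulators 12 rose. The median difference from 0 h was 0.95 in replicate 1, 2.55 in replicate 2 and 1.67 in replicate 3 for the prospore membrane, 1.03, 3.21 and 1.56 for the spore wall, and 1.30, 3.15 and 2.15 for middle kinases and regulators. Summed over a list, levels were 1369.6 and 4054.0 CPM in replicates 1 and 2 (1988.5 in replicate 3), against 1042.8, 1065.3 and 1027.8 CPM at 0 h, for the prospore membrane. For the spore wall they were 1845.3 and 4833.9 CPM (2195.8 in replicate 3), against 2453.3, 2161.3 and 2094.8 CPM at 0 h, so that the sum in replicate 1 lay below all 3 libraries at 0 h. Without replicate 2 the genes that rose numbered 8, 7 and 9 in the 3 lists.

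Within these promoters the MSE, the site bound by Ndt80, is shown for genes that were far apart between replicates 1 and 2 and for NDT80 itself. Capitals mark GNCACAAA, or its reverse complement where it lies on the other strand.
SPS4: gattgacgcgcGCCACAAAaacgtatcatt
SPO19: aagaaaaaaatGCCACAAAaagtagttgat
SPS2: aaaaaaaatatTTTGTGGCattacttagac
RRT5: aaaatggaagcGTCACAAAttaataacaaa
DTR1: tggtgaaaaacGACACAAActcctttgtaa
NDT80: ttgccctccatTTTGTGTCacctatttaag
The windows are at chrXV:903048-903077, chrXVI:304212-304241, chrIV:1485315-1485344, chrVI:223057-223086, chrII:589589-589618 and chrVIII:356465-356494 of R64, those of SPS4, SPS2 and RRT5 on the minus strand and the others on the plus strand, and NDT80 and RRT5 have 2 such matches before the start codon, of which 1 is printed. GNCACAAA stood in the promoters of 31 of 57 genes of the 3 lists, 54.4%, and of 4.36% of all 5825. The shorter core CACAAA, which is contained in it, stood in 42 of 57, 73.7%, and in 19.1% of all. SPR3 and SMA1, which also rose, had no match to the longer form.

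SPS4, a middle gene of little known function, had 172 and 2731 CPM at 2 h 30 min (505 in replicate 3), against 17.98, 4.88 and 22.05 CPM at 0 h. No 2 h 30 min library reached down to the 0 h levels, but replicate 2 was far above replicate 1, with replicate 3 between. The gene rose with a log2 fold change of 6.59 ± 0.94 and an edgeR adjusted p of 2.00e-05, and by 3.51 without replicate 2. SPO19, a protein of the prospore membrane, had 57.5 and 551 CPM at 2 h 30 min (75.1 in replicate 3), against 4.88, 1.39 and 5.51 CPM at 0 h, and its log2 fold change was 6.25, or 3.84 without replicate 2. Here replicates 1 and 3 were alike and replicate 2 alone was high. SPS2, a protein of the spore wall, had 70.2 and 888 CPM at 2 h 30 min (207 in replicate 3), against 10.97, 3.83 and 7.78 CPM at 0 h, with log2 fold changes of 5.97 and, without replicate 2, 3.20. RRT5, whose function is not well known, had 29.7 and 374 CPM at 2 h 30 min (96.1 in replicate 3), against 1.52, 1.39 and 3.24 CPM at 0 h, with 6.61 and 3.83. SPR3, a sporulation-specific septin, had 55.6 and 504 CPM at 2 h 30 min (165 in replicate 3), against 12.5, 9.05 and 14.3 CPM at 0 h, with 4.55 and 2.21.

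Other members that rose were likewise highest in replicate 2. DTR1, a transporter of bisformyl dityrosine, a building block of the outer spore wall, had 8.49 and 109.6 CPM at 2 h 30 min (9.01 in replicate 3), against 0.61, 1.04 and 1.62 CPM at 0 h, and was no longer called without replicate 2 (log2 fold change 5.76, and 2.93 without it, edgeR adjusted p = 0.0502). SMA1, which acts in assembly of the prospore membrane, had 3.77 and 65.8 CPM at 2 h 30 min (21.03 in replicate 3), against 1.22, 0.697 and 3.57 CPM at 0 h, and its log2 fold change of 4.26 became 1.02 without replicate 2, with no call. CDA2, which makes the chitosan of the spore wall by deacetylating chitin, rose by 4.68, and by 2.57 without replicate 2. SPO77 and SPR2 rose by 5.13 and 5.34, and by 3.83 and 2.62 without replicate 2. SPO77 had 6.60 and 25.3 CPM at 2 h 30 min (12.02 in replicate 3, from 4 counts), against 0.305, 0.697 and 0.324 CPM at 0 h. With so few counts at 0 h, the size of its fitted fold change depends on the prior count. OSW2, which has a role in the outer spore wall, went the other way. It had 42.4 and 76.9 CPM at 2 h 30 min (51.1 in replicate 3), against 179.8, 169 and 200.4 CPM at 0 h, all libraries lying below those at 0 h, and fell by 1.60 on the log2 scale (edgeR adjusted p = 0.0011).

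**Figure D5:**
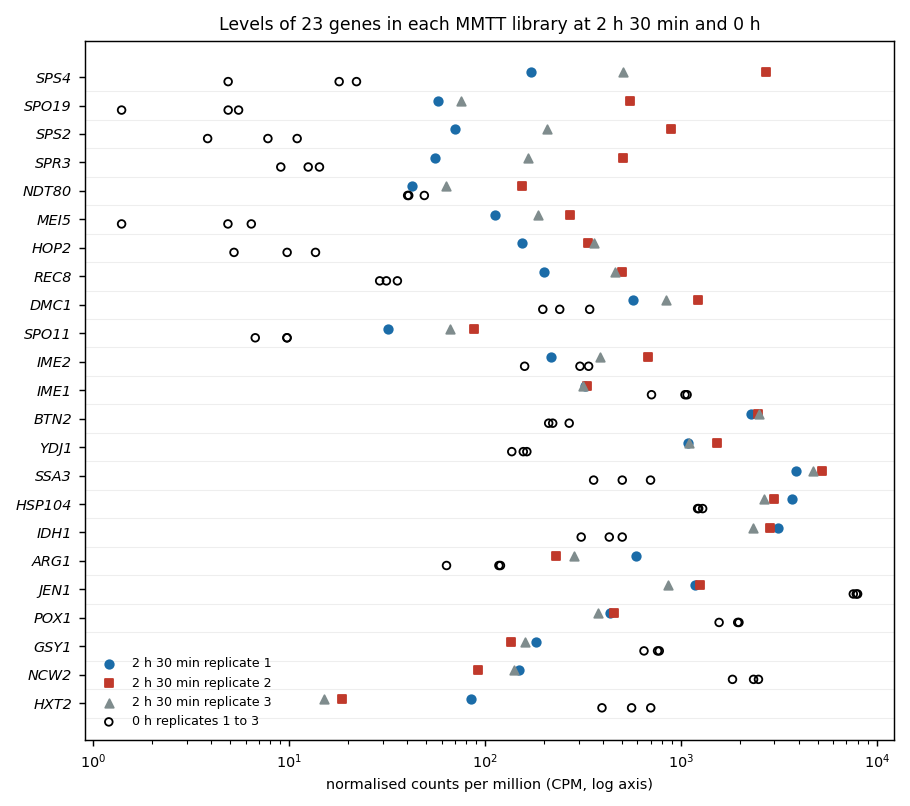
CPM (x axis, log) of 23 genes in each MMTT library, with filled symbols for the 3 replicates at 2 h 30 min above open circles for the 3 at 0 h. SPS4, SPO19 and SPS2 are spread over more than a 4-fold range at 2 h 30 min, while BTN2, YDJ1 and HSP104 are close together and apart from 0 h, and IME1, JEN1, POX1, GSY1 and NCW2 are lower at 2 h 30 min in every library.

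Genes of premeiotic S phase rose in part. Of 40 DNA replication genes 13 rose and none fell (median log2 fold change 0.52), 10 of them with each library left out in turn. RNR1, the large subunit of ribonucleotide reductase, had 117 and 216 CPM at 2 h 30 min (231 in replicate 3), against 29.3, 28.9 and 23.02 CPM at 0 h, with all 2 h 30 min libraries above 0 h and a log2 fold change of 2.62 ± 0.27 and an edgeR adjusted p of 3.93e-07. POL1, the catalytic subunit of DNA polymerase alpha, had 83.9 and 118 CPM at 2 h 30 min (108 in replicate 3), against 20.4, 21.6 and 22.7 CPM at 0 h, with a log2 fold change of 2.23, and RFA3, a subunit of the single-strand binding protein, rose by 2.35. Of 9 cyclin genes 4 rose and 1 fell (median log2 fold change 0.59), but without replicate 2 only 1 rose and 1 fell and the median was -0.18. CLB5, a B-type cyclin of S phase, had 72.6 and 126 CPM at 2 h 30 min (78.1 in replicate 3), against 20.1, 29.9 and 26.6 CPM at 0 h and rose by 1.97, without overlap. CLN1, a G1 cyclin, had 10.4 and 6.75 CPM at 2 h 30 min (30.04 in replicate 3), against 47.2, 33.4 and 36.3 CPM at 0 h and fell, its log2 fold change being -2.20, or -0.37 and not called with replicate 3 alone. CLB1, a cyclin of the meiotic divisions, had 26.9 and 64.1 CPM at 2 h 30 min (48.1 in replicate 3), against 25.9, 37.3 and 29.2 CPM at 0 h. Replicate 1 lay within the 0 h range and CLB1 was not called. CLB4 was called (1.49) but not without replicate 2 (0.35).

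No histone gene of 10 was called by edgeR or by DESeq2, with 2 higher and 0 lower at an unadjusted p under 0.05, and the libraries differed in sign. HHF1, a gene for histone H4, had 911 and 1649.5 CPM at 2 h 30 min (1499 in replicate 3), against 498, 749 and 707 CPM at 0 h, with a log2 fold change of 0.98 just under the limit of 1. HTB2, a gene for histone H2B, had 54.7 and 232 CPM at 2 h 30 min (225 in replicate 3), against 105, 133 and 105 CPM at 0 h, more than 4-fold apart between replicates 2 and 1. All 10 histone genes were higher in replicate 2 than in replicate 1, and the median difference of the list from 0 h was -0.51 in replicate 1, 0.59 in replicate 2 and 0.27 in replicate 3. By edgeR 2 histone genes were called higher without replicate 1 and 1 was called lower without replicate 2.

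Heat shock genes changed by much the same amount in each library. Of 29 genes for heat shock proteins and chaperones 25 rose and none fell, with medians of 1.61 in replicate 1, 1.78 in replicate 2 and 1.55 in replicate 3, and 24 of the calls held with each library left out. Their summed level was 51570.3 and 59138.7 CPM in replicates 1 and 2 (51822.2 in replicate 3), against 16618.1, 16227.9 and 17501.9 CPM at 0 h. BTN2, which sorts misfolded proteins, had 2266 and 2465 CPM at 2 h 30 min (2508 in replicate 3), against 211, 269 and 221 CPM at 0 h. The 3 libraries at 2 h 30 min lay within a narrow range far above those at 0 h, with a log2 fold change of 3.34 ± 0.25 and an edgeR adjusted p of 7.71e-09. YDJ1, a Hsp40 co-chaperone, had 1093 and 1522 CPM at 2 h 30 min (1093 in replicate 3), against 137, 157 and 163 CPM at 0 h and rose with a log2 fold change of 3.10 ± 0.15 and an edgeR adjusted p of 4.15e-11. SSA3, a stress-induced Hsp70, had 3887 and 5278 CPM at 2 h 30 min (4728 in replicate 3), against 502, 358 and 699.7 CPM at 0 h and a log2 fold change of 3.14. HSP104, the disaggregase, had 3710.4 and 3002 CPM at 2 h 30 min (2664 in replicate 3), against 1291, 1232 and 1217 CPM at 0 h and rose by 1.43. HSP60, SBA1, HSF1 and SSC1 were not called. The element GAANNTTC stood in the promoters of 11 of the 29 genes, 37.9%, and of 12.0% of all. BTN2, YDJ1, SSA3 and HSP104 had no match before the start codon in this window.

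The general stress response did not move with the heat shock genes. Of its 22 genes 1 rose and 6 fell (median -0.39), and without replicate 2 none rose and 4 fell. ALD3, an aldehyde dehydrogenase, had 57.99 and 42.8 CPM at 2 h 30 min (48.1 in replicate 3), against 235, 220.4 and 238 CPM at 0 h and fell by 2.20 on the log2 scale, though reads of ALD3 and its near copy ALD2 may be mixed. DDR48 and XBP1 had log2 fold changes of -2.15 and -2.19 but were not called without replicate 2. SIP18, a desiccation protein, was called higher (1.28) but lost the call without either used 2 h 30 min library, and also without 0 h replicate 1 or replicate 2. Genes for trehalose and glycogen fell in 6 cases of 16 and rose in 1. GSY1, a glycogen synthase, had 182 and 136 CPM at 2 h 30 min (159 in replicate 3), against 759.9, 775 and 648 CPM at 0 h, with a log2 fold change of -2.19 ± 0.17 and an edgeR adjusted p of 9.96e-09. GSY2, its partner, and TSL1, a subunit of the trehalose synthase complex, fell by 1.68 and 1.60 on the log2 scale. GLG2, the glycogenin that primes glycogen chains, had 124 and 213 CPM at 2 h 30 min (180.2 in replicate 3), against 56.1, 50.8 and 65.5 CPM at 0 h and rose by 1.55, or by 1.11 without replicate 2.

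Among genes of carbon use, the citric acid cycle divided. Of 17 genes 6 rose and 2 fell (median 0.80). The median difference from 0 h was 0.79 in replicate 1, 0.69 in replicate 2 and 0.15 in replicate 3. IDH1 and IDH2, the subunits of the mitochondrial NAD-dependent isocitrate dehydrogenase, had the largest changes of the list. IDH1 had 3139 and 2839 CPM at 2 h 30 min (2334 in replicate 3), against 431, 309.6 and 502 CPM at 0 h, and IDH2 had 1775 and 1339 CPM at 2 h 30 min (1027 in replicate 3), against 213, 167 and 246 CPM at 0 h. Both were well apart from 0 h in all libraries, IDH1 with a log2 fold change of 2.85 ± 0.17 and an edgeR adjusted p of 8.48e-10 and IDH2 with a log2 fold change of 2.90. MDH1, mitochondrial malate dehydrogenase, rose by 1.54, while LSC1 and LSC2, the subunits of succinyl-CoA ligase, fell by 1.16 and 1.09 on the log2 scale. Of 35 nuclear genes of the respiratory chain and ATP synthase 10 rose and none fell. Medians were 0.394 in replicate 1, 0.807 in replicate 2 and 0.285 in replicate 3. Summed levels were 18325.4 and 19478.5 CPM in replicates 1 and 2 (14947.1 in replicate 3), against 14172.4, 13617 and 15918.7 CPM at 0 h. Replicate 3 thus lay within the 0 h range. CYC7, the minor isoform of cytochrome c, had 68.4 and 84.3 CPM at 2 h 30 min (63.1 in replicate 3), against 15.9, 12.2 and 16.9 CPM at 0 h and a log2 fold change of 2.35. CYC1, the major isoform, had 53.7 and 48.9 CPM at 2 h 30 min (18.02 in replicate 3), against 10.1, 13.6 and 26.3 CPM at 0 h and was called higher (1.62), but replicate 3 lay within the 0 h range and gave 0.13 when used alone, with no call. COX5B, an alternative subunit of cytochrome oxidase, rose by 1.67.

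In the list of glyoxylate, acetate use and gluconeogenesis genes 3 of 17 rose and 2 fell (median -0.06). The shares of all genes tested were 10.7% and 6.93%. JEN1, the lactate and pyruvate permease, had 1182 and 1255 CPM at 2 h 30 min (856 in replicate 3), against 7589.6, 7859 and 7983 CPM at 0 h, with a log2 fold change of -2.68 ± 0.20 and an edgeR adjusted p of 7.60e-09. The 3 libraries at 2 h 30 min were all far below 0 h. ACS1, the acetyl-CoA synthetase used on acetate, had 3293 and 3613 CPM at 2 h 30 min (2929 in replicate 3), against 9653, 9827 and 6049.8 CPM at 0 h and fell by 1.30 on the log2 scale, and ACO1, aconitase, rose by 1.47. Of 18 genes for fatty acid oxidation and carnitine 8 fell and none rose, with nearly equal medians in replicates 1 and 2 (-0.92 and -0.98), and -1.30 in replicate 3. POX1, the acyl-CoA oxidase of the peroxisome, had 436 and 454 CPM at 2 h 30 min (375 in replicate 3), against 1950.0, 1978 and 1567 CPM at 0 h, with a log2 fold change of -2.04 ± 0.25 and an edgeR adjusted p of 3.28e-06. FAA2, an acyl-CoA synthetase, and ECI1, an enoyl-CoA isomerase, fell by 2.33 and 1.84 on the log2 scale, but FAA2 is annotated over a gene on the opposite strand, and reads of the pair may not be separate.

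Of 17 glycolysis genes 4 rose and 2 fell, against 10.7% and 6.93% of all genes tested. Every one of the 17 was lower in replicate 2 than in replicate 1. Without replicate 1 the counts turned to 1 higher and 4 lower, and with replicate 3 alone to 1 higher and 5 lower. PGK1, phosphoglycerate kinase, had 3676 and 2637 CPM at 2 h 30 min (2703 in replicate 3), against 1005, 957 and 1199 CPM at 0 h and rose by 1.58. ENO2 had 1934 and 895 CPM at 2 h 30 min (934 in replicate 3), against 659, 622 and 668 CPM at 0 h, and its log2 fold change of 1.12 was 0.46 and not called without replicate 1. GPM1, phosphoglycerate mutase, was called (1.23) but fell short of the threshold without replicate 1 (0.92). TDH1, a glyceraldehyde-3-phosphate dehydrogenase, had 558 and 284 CPM at 2 h 30 min (252 in replicate 3), against 2232, 2177 and 2423 CPM at 0 h and fell by 2.44 on the log2 scale. ENO2 and TDH1 have near copies, ENO1 and TDH2, with which reads may be shared. Of 18 hexose transporter genes 2 rose and 3 fell, the share that rose being near that of all genes. HXT2, a transporter of high affinity, had 84.4 and 18.6 CPM at 2 h 30 min (15.02 in replicate 3), against 560.0, 395 and 701 CPM at 0 h, below 0 h in every library but more than 4-fold apart between replicates 1 and 2 (log2 fold change -3.45, and -4.89 without replicate 1). HXT14 and HXT10 were high in replicate 2. HXT10 had 24.04 and 278 CPM at 2 h 30 min (57.1 in replicate 3), against 8.54, 7.31 and 13.3 CPM at 0 h, and its call (3.97) was lost without replicate 2 (1.30), while HXT14 rose by 4.82, or by 2.61 without replicate 2.

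In arginine and histidine synthesis replicate 1 was the higher library for all but 1 gene of each list. Of 9 arginine genes 2 rose, with medians of 1.03 in replicate 1, -0.26 in replicate 2 and 0.15 in replicate 3. ARG1, argininosuccinate synthase, had 588 and 230.4 CPM at 2 h 30 min (285 in replicate 3), against 118, 119.8 and 63.5 CPM at 0 h. All libraries at 2 h 30 min were above all at 0 h, and ARG1 rose with a log2 fold change of 2.03 ± 0.32 and an edgeR adjusted p of 5.14e-05, or by 1.20 without replicate 1. ARG3, ornithine transcarbamylase, had 124 and 75.2 CPM at 2 h 30 min (69.1 in replicate 3), against 34.4, 49.5 and 27.6 CPM at 0 h and rose by 1.42. Without replicate 2 the list had 5 genes that rose, and without replicate 1 it had 2 that rose and 2 that fell.

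The histidine list had 1 of 7 genes called higher, HIS6, with 46.2 and 31.4 CPM at 2 h 30 min (33.04 in replicate 3), against 9.14, 15.7 and 13.3 CPM at 0 h, a call that was lost without replicate 1 (1.60, and 1.31 without it). HIS4, a multifunctional enzyme of the pathway, had 595 and 166 CPM at 2 h 30 min (246 in replicate 3), against 293, 294 and 255 CPM at 0 h, with replicates 1 and 2 on opposite sides of the 0 h libraries, and was not called. Both genes have a match to the Gcn4 site TGACTC before the start codon, printed for the pathway that was furthest apart in this direction, with the site in capitals on the strand of the gene for HIS4 and as its reverse complement for HIS6.
HIS4: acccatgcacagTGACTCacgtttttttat
HIS6: gtctagtgtgcaGAGTCAtacggaataatt
These are at chrIII:68515-68544 and chrIX:314897-314926, both on the minus strand of R64, and HIS4 has 2 matches, of which 1 is printed. TGACTC stood in 16 of 30 promoters of the arginine, histidine and aromatic lists, 53.3%, and in 8.15% of all. ARG1, ARG3 and ARO4 had no match before the start codon in this window. In the aromatic list 2 of 14 genes rose, and without replicate 1 there were 1 that rose and 2 that fell. ARO4, which catalyses the entry step of the pathway, had 273 and 107 CPM at 2 h 30 min (126 in replicate 3), against 72.5, 75.6 and 78.1 CPM at 0 h and was not called without replicate 1 (1.33, and 0.51 without it), and ARO7 (1.30) was at 0.72 without replicate 2 and not called. In the branched-chain list 1 of 10 rose, LEU9 (1.84), and in the lysine list 1 of 7, LYS20 (1.19), which has the near copy LYS21. Of all genes tested 10.7% were called higher, a share near those of the histidine, aromatic, branched-chain and lysine lists.

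Sulfate assimilation and methionine genes fell in 5 cases of 18 and rose in none (median -0.61), and purine and one-carbon genes fell in 4 of 17 with none that rose. The sulfate and methionine genes that fell numbered 2 without replicate 2 and 8 without replicate 1, and the purine and one-carbon genes 1 and 7. MET17, which incorporates sulfide, had 83.9 and 22.9 CPM at 2 h 30 min (45.1 in replicate 3), against 283, 377 and 177 CPM at 0 h, with a log2 fold change of -2.41, although it overlaps a gene annotated on the opposite strand. Replicate 2 was the lowest library, and without replicate 1 the value was -3.60. SAM2, which makes S-adenosylmethionine, had 37.7 and 28.00 CPM at 2 h 30 min (30.04 in replicate 3), against 110.3, 119 and 96.9 CPM at 0 h and fell by 1.74 on the log2 scale. MET14 (-1.38) was called but not without replicate 2. GCV2, a subunit of glycine decarboxylase, had 368 and 315 CPM at 2 h 30 min (267 in replicate 3), against 1160.2, 1153 and 825 CPM at 0 h, without overlap, and fell by 1.62 on the log2 scale. SHM1 and ADE3 were called (-1.06 and -1.28) but not without replicate 2 (-0.98 and -0.83).

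Of 138 cytoplasmic ribosomal protein genes 44 rose and none fell, with medians of 1.00 in replicate 1, 0.55 in replicate 2 and 0.95 in replicate 3. The calls numbered 60 without replicate 2 and 31 without replicate 1, and 27 of the 44 held with each library left out. RPL14B, a protein of the large subunit, had 190.0 and 189 CPM at 2 h 30 min (189 in replicate 3), against 53.3, 37.6 and 60.3 CPM at 0 h, the 3 libraries at 2 h 30 min nearly equal and all above 0 h, with a log2 fold change of 1.91 ± 0.24 and an edgeR adjusted p of 5.90e-06. RPL42A and RPS30B rose by 2.12 and 1.85 on the log2 scale, but each has a near copy with which reads may be shared. Genes that build ribosomes did not move in this way. Of 106 ribosome assembly genes 1 rose and 3 fell (median -0.11), and none of these was called with each library left out. The list's median was -0.02 in replicate 1, -0.09 in replicate 2 and 0.26 in replicate 3, and with replicate 3 alone 7 genes were called higher and 0 lower. UTP4, a member of the small-subunit processome, had 30.6 and 31.4 CPM at 2 h 30 min (27.03 in replicate 3), against 26.8, 20.9 and 43.4 CPM at 0 h, overlapping. No RNA polymerase I gene of 10 was called by edgeR or by DESeq2, with 0 higher and 1 lower at an unadjusted p under 0.05. Of 67 mitochondrial ribosomal protein genes 1 rose and 2 fell.

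In the remaining lists most members were not called, as was so for all genes tested. The shares of all genes called higher and lower were 10.7% and 6.93%. Of 29 genes of nitrogen limitation and transport 5 rose and 3 fell. MEP1, an ammonium permease, had 381 and 331 CPM at 2 h 30 min (360.5 in replicate 3), against 118, 139 and 102 CPM at 0 h and rose by 1.57, while PUT1, proline oxidase, had 382 and 316 CPM at 2 h 30 min (333 in replicate 3), against 1604, 1633 and 1237 CPM at 0 h and fell by 2.10 on the log2 scale, both without overlap. Of 31 autophagy and vacuolar genes 1 rose and 4 fell (none and 2 without replicate 2), among them PRB1, a vacuolar protease, with 1497 and 1302 CPM at 2 h 30 min (1748 in replicate 3), against 5529, 5118 and 4410.2 CPM at 0 h and a log2 fold change of -1.84. No proteasome gene of 33 was called by edgeR or by DESeq2, although 17 were lower and 0 higher at an unadjusted p under 0.05 (median -0.40). Phosphate and zinc uptake had 1 gene of 18 that rose and 3 that fell, led by PHO89, a phosphate transporter (-1.61). Phospholipid and ergosterol synthesis had 1 of 29 that rose, ERG5 (2.25), and 8 that fell. ITR1, the inositol transporter, had 416 and 296 CPM at 2 h 30 min (300.4 in replicate 3), against 2309, 2181 and 2476 CPM at 0 h, with a log2 fold change of -2.71 ± 0.21 and an edgeR adjusted p of 9.57e-09.

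MKT1 and TAO3, the genes whose alleles define the strain, were not called. MKT1 had 124 and 102 CPM at 2 h 30 min (111 in replicate 3), against 141, 131 and 119.6 CPM at 0 h, and TAO3 had 126 and 117 CPM at 2 h 30 min (174 in replicate 3), against 179, 159 and 121 CPM at 0 h, with log2 fold changes of -0.21 and -0.33. These levels check the presence of both transcripts and not the alleles. Of their partners in the list, PBP1, SSD1 and MOB2 were called lower (-1.14, -1.16 and -1.67), and CBK1 was not called. The call of PBP1 was lost without replicate 2 at 2 h 30 min, and that of SSD1 was lost whichever library of either group was left out. MOB2 had 9.90 and 9.78 CPM at 2 h 30 min (27.03 in replicate 3), against 27.7, 35.5 and 31.1 CPM at 0 h, and with replicate 3 alone it was at -0.21 and not called.

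The labelled state was checked with marker genes. SPO11, REC8, HOP1 and ZIP1, expressed in diploid cells in meiosis, rose, as given above. Of the other markers chosen for this state, IME1 was called lower (log2 fold change -1.52) and IME2 was not called (0.74). The 19 genes of haploid cells and mating together had 273.0 and 386.6 CPM in replicates 1 and 2 (426.5 in replicate 3), against 275.3, 255.6 and 279.5 CPM at 0 h. Their sum was thus above all 0 h libraries in replicates 2 and 3 and within the 0 h range in replicate 1. The pheromone genes MFA2 and MF(ALPHA)2 were at most 1.62 CPM in every library. Of the 19, 3 were called higher and 1 lower, or 1 and 1 without replicate 2. STE18, a G protein subunit of the pheromone pathway, had 12.7 and 65.4 CPM at 2 h 30 min (36.05 in replicate 3), against 0.305, 5.22 and 2.27 CPM at 0 h, with a log2 fold change of 3.96 that was not called without replicate 2 (2.32), and FUS1, a cell fusion gene, fell by 2.00 on the log2 scale. AXL1, also of this list, rose by 1.43 on the log2 scale, or by 1.035 without replicate 2. Of all genes tested, 10.7% were called higher and 6.93% lower. The part of the haploid and mating genes in the other results was not tested.

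The 10 largest rises were taken among called genes whose groups did not overlap and whose mean reached 10 CPM in 1 group. All were higher in replicate 2 than in replicate 1. Of the 10, RRT5, SPS4, SPO19 and SPS2 are given above. ECM23 had 8.01 and 81.3 CPM at 2 h 30 min (45.1 in replicate 3), against 0.914, 0 and 1.30 CPM at 0 h, with a log2 fold change of 5.86, or 3.35 without replicate 2, and LOH1, whose role is not well known, rose by 5.79, or by 2.87 without it. In the remaining genes, YOL013W-A, YPR108W-A, YDL186W and YDL007C-A, the 0 h libraries held at most 3 counts together, so the fitted fold change depends on the prior count and none is given. YOL013W-A had 2.36 and 57.7 CPM at 2 h 30 min (39.05 in replicate 3), against 0, 0.348 and 0 CPM at 0 h. YPR108W-A had 1.89 and 51.3 CPM at 2 h 30 min (15.02 in replicate 3), against 0.305, 0 and 0.324 CPM at 0 h. YDL186W had 8.01 and 52.3 CPM at 2 h 30 min (30.04 in replicate 3), against 0, 0.348 and 0.648 CPM at 0 h, higher than the others in replicate 1. YDL007C-A had 2.36 and 46.6 CPM at 2 h 30 min (21.03 in replicate 3), against 0.61, 0.348 and 0 CPM at 0 h. Only YDL186W was still called without replicate 2.

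The largest falls over the whole table included several of similar size in all libraries. NCW2, a protein of the cell wall, had 149 and 92.4 CPM at 2 h 30 min (141 in replicate 3), against 2349, 1834 and 2488 CPM at 0 h, with a log2 fold change of -4.21 ± 0.44 and an edgeR adjusted p of 5.54e-07. CYB2, the lactate dehydrogenase of the mitochondrial intermembrane space, had 156 and 119.8 CPM at 2 h 30 min (78.1 in replicate 3), against 1413, 1515 and 1312 CPM at 0 h, with a log2 fold change of -3.36 ± 0.22 and an edgeR adjusted p of 1.84e-09. In both, every library at 2 h 30 min was far below every library at 0 h. YPS1, a cell wall aspartyl protease, ALP1, an arginine transporter, JLP1, a sulfonate dioxygenase, and SMP1, a transcription factor, had log2 fold changes of -2.97, -2.91, -2.91 and -2.89. YLR338W (-3.58) and SRL1 (-3.10, a cell wall protein) had low counts at 2 h 30 min, and SRL1 was not called without replicate 2 (-2.08) and was at -5.89 without replicate 1. YOR055W had 0.943 and 0 CPM at 2 h 30 min (3.00 in replicate 3), against 12.2, 14.97 and 9.40 CPM at 0 h, too few counts at 2 h 30 min for a fold change, and was not called without replicate 2. HXT2 completes the set.

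Set against 1 h 40 min, the time point just before it, the libraries at 2 h 30 min had 149 genes called higher (2.32% of 6419) and 13 called lower (0.203%). Of the genes called higher, 11 were in the prospore membrane list, 12 in the spore wall list, 10 among middle kinases and regulators, 14 in strand exchange, 5 in break formation, 2 in cohesin and 4 among histones, and 3 trehalose and glycogen genes and 3 general stress genes were called lower. None of these calls held without replicate 2. There, edgeR called 0 genes in either direction, with 295 genes higher and 180 lower at an unadjusted p under 0.05, and DESeq2 called 0 higher and 1 lower. Without replicate 1 the counts were 246 and 118, and without 1 h 40 min replicate 2 they were 68 and 5. The 2 h 30 min libraries are shared with the comparison with 0 h, and the values above are not independent of it.

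To see where this strain differed from the wild type, the change at 2 h 30 min in MMTT was set against that in SS. The fit covered both strains and 6031 genes. For SS at 0 h only replicates 2 and 3 were used, since replicate 1 held 195492 counts. The change was higher in MMTT for 104 genes (1.72%) and lower for 95 (1.58%), and 20 and 28 without MMTT replicate 2 at 2 h 30 min. Among the genes for which MMTT was higher were 9 of 27 in strand exchange, 8 of 21 in the spore wall, 6 of 20 in the prospore membrane and 6 of 16 middle kinases and regulators, against 1, 0, 0 and 0 without replicate 2. Among those lower in MMTT were 7 of 29 heat shock genes and 7 of 17 glycolysis genes, against 3 and 0 without it, and 1 heat shock gene was higher in MMTT. Leaving out SS 0 h replicate 2 gave 38 and 36 genes.

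NDT80 had 40.96 and 149 CPM in MMTT at 2 h 30 min, against 39.3, 39.9 and 47.5 CPM in MMTT at 0 h, and 18.5, 19.9 and 19.3 CPM in SS at 2 h 30 min, against 34.2 and 40.5 CPM in SS at 0 h. Of the MMTT libraries in this fit only replicate 2 was above all at 0 h, while in SS all 2 h 30 min libraries were below 0 h, and the changes differed by 2.14 on the log2 scale (edgeR adjusted p = 0.00543), or by 0.97 without MMTT replicate 2, where the adjusted p was 0.346. IME2 had 210.3 and 649 CPM in MMTT at 2 h 30 min, against 298, 331 and 155 CPM in MMTT at 0 h, and 74.8, 68.2 and 61.1 CPM in SS at 2 h 30 min, against 243 and 133 CPM in SS at 0 h. The difference was 2.19 (edgeR adjusted p = 0.0164), and 1.21 without MMTT replicate 2, not called. DMC1 had 547 and 1177 CPM in MMTT at 2 h 30 min, against 235, 335 and 191 CPM in MMTT at 0 h, and 148, 136 and 166 CPM in SS at 2 h 30 min, against 288 and 139.9 CPM in SS at 0 h, with a difference of 2.28 (edgeR adjusted p = 0.00227), and 1.68 without replicate 2, adjusted p 0.0753. SPS4 had 166 and 2622 CPM in MMTT at 2 h 30 min, against 17.6, 4.77 and 21.4 CPM in MMTT at 0 h, and 3.09, 1.48 and 2.05 CPM in SS at 2 h 30 min, against 3.66 and 0.98 CPM in SS at 0 h. Levels were low throughout SS, and the difference of 6.59 (edgeR adjusted p = 0.0343) was 3.57 without replicate 2, adjusted p 0.216. For IME1 (0.75), SPO11 (0.64), ZIP1 (1.21), CLB1 (0.96), ARG1 (0.64), HIS4 (0.27), HSP104 (-0.41) and UTP4 (-0.26) the difference in log2 change, MMTT minus SS, was not called.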

How the data were processed

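RNA was sequenced by the authors in 54 libraries of yeast, made with a directional kit. The values used are raw read counts per gene, deposited by the authors as 1 table and not normalised. The submitters' processing notes name FastQC and STAR, without versions, and the genome build, annotation and strand setting of the counting are not given in the sources used here. Columns of other samples were 0 in number. Gene names, positions and sequences came from the RefSeq annotation and genome of R64. Of 139 genes named, 135 were found there. Near copies (90% identity over 100 bases or more, blastn 2.17.0) were found for 8 and an overlapping gene on the opposite strand for 3, and reads of such genes cannot be assigned with certainty.

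Counts of the 24 MMTT libraries were scaled by the trimmed mean of M values, after 45 min replicate 2, 2 h 30 min replicate 3 and 5 h 40 min replicate 3 had been left out, as the study did with libraries that its clustering and principal components marked as possible outliers. Of these 3, only 2 h 30 min replicate 3 was shallow. The factors from the 24 libraries served the test. Printed CPM and distances between libraries used factors over all MMTT libraries, these 3 included. In the comparison with SS, printed CPM used factors over its 49 libraries. Genes reaching 0.5 CPM in 3 or more libraries, 6419 in all, were tested with edgeR 4.0.16 (robust quasi-likelihood test, R 4.3.3, limma 3.58.1), with 1 mean per time point, and p-values were adjusted over the whole table by Benjamini-Hochberg. A call needed an adjusted p below 0.05 together with a log2 difference of more than 1 in size. An approximate standard error was the size of the log2 difference over the root of the F statistic. Log2 CPM used a prior count of 2. The change in MMTT was compared with that in SS in 1 fit of 49 libraries. It covered 6031 genes that reached 3 CPM in 3 or more of them. From SS, 0 h replicate 1 (195492 counts) and 30 min replicate 1 (159701 counts) were left out as well. SS at 0 h thus kept only replicates 2 and 3. Lists were described by counts and medians, with no set test. Alternatives were DESeq2 1.42.0, its size factors, no filter or 3 CPM, a log2 limit of 2, all libraries, 5 libraries only, a replicate block, replicate 3 added, and each library left out. Replicate 3 alone in place of replicates 1 and 2 was added after the data had been seen.

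The genes named were IME1, IME2, NDT80, MKT1 and TAO3, and in each list the 3 called members with the largest change in each direction whose replicates 1 and 2 at 2 h 30 min did not overlap with 0 h and that had a mean of at least 10 CPM in 1 of the groups. They also included the 10 largest changes in each direction among all genes that met the same conditions. In the 6 recombination and spore formation lists the 2 members furthest apart between replicates 1 and 2 were added, as were 12 genes for the comparison with SS. Others (SUM1, HOP1, HHF1, HTB2, CBK1 and the heat shock genes not called) were named after their values were seen. The members and lists were chosen with earlier results of these data known. Figures were drawn in Python 3.11.15 with pandas 2.3.3 and matplotlib 3.10.9.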

Additional observations from a re-analysis of the deposited data

Results flagged for a closer look

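The change at 2 h 30 min differed between MMTT and SS, by the test of the difference itself, for 104 genes that were higher in MMTT and 95 that were lower. Of the 12 genes compared by name, this held for IME2 (2.19 on the log2 scale, MMTT minus SS), NDT80 (2.14), DMC1 (2.28) and SPS4 (6.59). None of these 4 was called without MMTT replicate 2 at 2 h 30 min. The shallow replicate 3 of MMTT at 2 h 30 min, which took no part in the test, had list sums above every 0 h library of the strain. Break formation genes summed to 1426.8 CPM in it, against 540.2, 500.8 and 488.9 CPM at 0 h. For strand exchange the sum was 4815.2 CPM, against 1603.4, 1765.6 and 1371.5 CPM at 0 h. For cohesin and monopolin it was 2228.8 CPM, against 528.3, 508.1 and 477.6 CPM at 0 h. The prospore membrane list summed to 1988.5 CPM, against 1042.8, 1065.3 and 1027.8 CPM at 0 h, and middle kinases and regulators to 1883.4 CPM, against 529.2, 495.6 and 522.0 CPM at 0 h. The spore wall list was not among them.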

How the results depend on the processing

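The counts of genes that rose and fell relative to 0 h, 689 and 445, stayed within 1.5 times under every alternative except a log2 limit of 2, which left 229 and 63. Leaving out 1 library at a time they ranged over 510 to 698 and 309 to 496. The calls against 1 h 40 min (149 higher, 13 lower) were 76 and 1 at the limit of 2, 60 higher with all libraries, 28 lower with DESeq2, and 0 to 246 and 0 to 118 with 1 library left out. The difference between strains (104 and 95) was 55 and 9 at the limit of 2, 161 higher with DESeq2, and 20 to 188 and 28 to 125 with 1 library left out. With a replicate block the counts were 631 and 407 against 0 h, 127 and 12 against 1 h 40 min, and 111 and 88 between strains. The labels do not say whether libraries with the same replicate number are paired. The mean correlation of deviations from the group mean was 0.038 for the same number and -0.019 for other numbers. With 2 libraries in a group the deviations mirror each other, so these values cannot decide whether libraries were paired. Directions of log2 fold changes turned for NDT80, IME2 and CLB1 without replicate 2 (-0.03, -0.30 and -0.19, against 1.84, 1.34 and 1.06 without replicate 1), for HIS4 without replicate 1 (-0.76, against 1.08 without replicate 2) and with replicate 3 alone (-0.18), and for TAO3 with replicate 3 alone (0.20). UTP4 (0.03) was -0.007 with all libraries, -0.005 with replicate 3 added, -0.16 with replicate 3 alone, and -0.18 to 0.38 with 1 library left out. Of the 132 called genes named, 66 lost their call at the log2 limit of 2, 37 with replicate 3 alone and 41 under at least 1 of the other alternatives, 31 of them without replicate 2, which makes 85 in all. With the 5 libraries of the 2 groups alone NDT80, SPR3, SMA1, SPR2, NSR1, MET17, HXT10 and LOH1 were not called, and with all libraries NDT80, CLB4, PWP2, NOP58, NSR1, IDP2 and ENO2 were not. The cause was not tested. Depth limits replicate 3 most. With the 5 libraries of the 2 groups alone, 671 genes rose and 458 fell.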

Other observations

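Of the 20 genes that were more than 4-fold higher in replicate 1 than in replicate 2 at 2 h 30 min, 4 are given here, picked out after their values were seen. CTS1, the chitinase that cuts the septum, had 183 and 36.4 CPM in replicates 1 and 2 at 2 h 30 min (54.1 CPM in replicate 3), against 363, 325 and 242 CPM at 0 h. DSE1 had 96.7 and 18.2 CPM (30.0 CPM in replicate 3), against 146, 159 and 135 CPM at 0 h. DSE2 had 32.5 and 5.06 CPM (21.0 CPM in replicate 3), against 78.3, 63.4 and 41.2 CPM at 0 h. DSE4 had 24.04 and 4.05 CPM (15.0 CPM in replicate 3), against 77.4, 64.8 and 48.96 CPM at 0 h. All 4 fell relative to 0 h by edgeR's test (log2 fold changes of -1.51, -1.38, -1.77 and -2.26 for CTS1, DSE1, DSE2 and DSE4), and for each gene the 2 h 30 min libraries lay below all libraries at 0 h. Without replicate 2 the values were -0.76, -0.60, -0.91 and -1.41 and none of the 4 was called, while without replicate 1 they were -3.09, -3.01, -3.58 and -3.97.

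The mitochondrial intron genes AI1 and AI2 were the reverse in direction from 0 h. AI1 had 76.8 and 10.1 CPM in replicates 1 and 2 at 2 h 30 min (69.1 CPM in replicate 3), against 7.01, 7.66 and 5.51 CPM at 0 h. AI2 had 85.3 and 13.2 CPM (135 CPM in replicate 3), against 8.54, 8.36 and 8.43 CPM at 0 h. Replicates 1 and 3 were high and replicate 2 only just above 0 h, with log2 fold changes of 2.67 and 2.52. Without replicate 1 these were 0.59 and 0.64 and neither gene was called, and without replicate 2 they were 3.51 and 3.33.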
